A study of Mus musculus with 12 samples.

Results

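Gabra2, Gabra3, Gabra4, Gabra5, Gabrb1, Gabrb2 and Gabrg1, which encode subunits of the GABA-A receptor, were followed through synaptosomal and polyribosomal RNA of the mouse striatum. The 7 genes were named for this work and taken by symbol from a deposited table of 21492 genes, and all 7 passed the filter on low values in every comparison. The study set wild-type (WT) male C57BL/6J mice beside male C57BL/6J mice labelled Shank3 TG, at postnatal day 70, with no other treatment named in the labels. In each genotype it sequenced the RNA of striatal synaptosomes (input) and the RNA of polyribosomes isolated from them (polysome), 3 libraries in each of 4 groups. Synaptosomes are pinched-off nerve terminals with attached postsynaptic membrane, and polyribosomes are transcripts that carry several ribosomes. Which promoter drives the transgene, how many copies it has, and whether a sample is 1 animal or a pool is not given by the labels. P-values therefore speak only for the spread among these libraries, part of which may be technical.

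GABA-A receptors are pentameric chloride channels opened by GABA, the main inhibitory transmitter of the brain. Most receptors at synapses combine alpha, beta and gamma subunits. The alpha subunit and its neighbour subunit shape GABA affinity, benzodiazepine sensitivity and position in the membrane, while beta subunits form part of the GABA binding site and are needed for assembly. In the striatum the projection cells, the medium spiny neurons, are themselves GABAergic. They are known for alpha2-containing synaptic receptors and for alpha4 with delta in extrasynaptic receptors that carry tonic inhibition, whereas alpha5 is best known from hippocampal and deep cortical pyramidal cells and from striatal tonic inhibition early in life.

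In the GENCODE M21 annotation of GRCm38, 4 of the 7 genes lie on chromosome 5. Gabrg1, which encodes gamma1, occupies chr5:70751047-70842617 on the minus strand, and Gabra2, which encodes alpha2, chr5:70957597-71095849 on the minus strand. Gabra4, which encodes alpha4, lies at chr5:71569749-71658308 on the minus strand, and Gabrb1, which encodes beta1, at chr5:71658113-72149037 on the plus strand. The ends of Gabra4 and Gabrb1 overlap, and 46 exonic bases are shared on opposite strands. The RefSeq start of Gabra4 lies 387 bases beyond the first RefSeq start of Gabrb1. Gabra5, the alpha5 gene, lies at chr7:57407672-57510059 on the minus strand. Its exons share 148 bases with those of the antisense gene Gm9962. Gabrb2, the beta2 gene, lies at chr11:42419757-42629028 on the plus strand and Gabra3, the alpha3 gene, at chrX:72432681-72656848 on the minus strand.

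Sequence before the RefSeq start is shown for 4 genes. Gabra4 and Gabrb2 had the highest levels per length among the 7 and the largest differences between polysome and input libraries. Gabra3 and Gabra5 moved together across libraries. The sequences are from RefSeq with the build GRCm38.p6, read 5′ to 3′ along the gene's own strand. Each covers the 250 bases before the start, except that Gabra4 ends at base -56, short of an annotated Gabrb1 exon. The stretches are chr5:71658364-71658558 for Gabra4, chr11:42420190-42420439 for Gabrb2 (the first of its 3 RefSeq starts), chrX:72656920-72657169 for Gabra3 (the first of its 2 starts) and chr7:57510060-57510309 for Gabra5. Capitals mark matches to the motifs listed after the sequences.
Gabra4: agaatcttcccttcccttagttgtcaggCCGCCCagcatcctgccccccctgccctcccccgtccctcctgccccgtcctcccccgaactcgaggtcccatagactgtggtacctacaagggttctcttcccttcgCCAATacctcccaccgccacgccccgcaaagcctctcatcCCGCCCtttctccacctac
Gabrb2: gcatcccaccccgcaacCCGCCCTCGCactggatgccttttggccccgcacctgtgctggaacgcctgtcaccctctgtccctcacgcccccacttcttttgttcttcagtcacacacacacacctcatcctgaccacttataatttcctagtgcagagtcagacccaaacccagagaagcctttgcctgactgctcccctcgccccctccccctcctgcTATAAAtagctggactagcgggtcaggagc
Gabra3: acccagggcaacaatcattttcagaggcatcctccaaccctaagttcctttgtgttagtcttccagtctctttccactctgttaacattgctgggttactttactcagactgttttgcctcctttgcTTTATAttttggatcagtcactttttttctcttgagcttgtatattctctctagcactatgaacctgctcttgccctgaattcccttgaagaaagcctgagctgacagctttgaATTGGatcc
Gabra5: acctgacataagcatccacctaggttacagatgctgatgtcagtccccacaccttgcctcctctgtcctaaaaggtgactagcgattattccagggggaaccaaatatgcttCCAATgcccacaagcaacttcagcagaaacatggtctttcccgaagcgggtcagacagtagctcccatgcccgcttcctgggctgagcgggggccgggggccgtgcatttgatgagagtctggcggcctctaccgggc

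The motifs were searched on both strands in windows from 250 bases before to 50 bases after each start. They were the TATA box TATAAA, the GC box GGGCGG, the CCAAT box CCAAT, the cyclic AMP response element TGACGTCA, the Egr site GCGNGGGCG and the E-box CACGTG. Of 32851 RefSeq windows of that length, 13.6% held TATAAA, 35.7% the GC box, 37.4% CCAAT, 1.8% TGACGTCA, 5.6% the Egr site and 7.2% CACGTG. Gabra4 had GC box matches on the other strand at -222 and -74 from the start and CCAAT at -114. Gabrb2 had TATAAA at -30, with a GC box match at -233 that overlapped an Egr match at -232. Gabra3 had the reverse complement of TATAAA at -123 and that of CCAAT at -9 and again after the start. Gabra5 had CCAAT at -138. All 7 genes matched at least 1 window, 11 windows in all. The number of CpG dinucleotides per window ran from 0 in Gabra3 and 3 in Gabrg1 to 25 in Gabra2 and in the first window of Gabrb1. Between them lay 11 in the first window of Gabrb2, 12 in Gabra4 and 13 in Gabra5. Windows 2 and 3 of Gabrb2 and window 2 of Gabrb1 held 9 each. The median over all windows was 7. A match is a match of letters only.

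The coding sequences of the 7 genes were alike but distinct. Between alpha genes 67.8% to 73.4% of aligned coding bases were identical, and between Gabrb1 and Gabrb2 72.7%. At the length that matters for assigning reads the overlap was small, since between 0.0% and 1.02% of each gene's 31-base sequences occurred in any other gene.

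Input libraries had an estimated 61.6 to 85.5 M reads each, polysome libraries 76.7 to 102.8 M, and the lowest of the 7 genes still had at least 1527 estimated reads in every library. Mitochondrial ribosomal RNA took 39.1% to 46.8% of the signal in input and 23.1% to 34.0% in polysome libraries, and nuclear protein-coding genes 41.2% to 50.5% and 60.3% to 73.2%. Values of polysome against input compare normalized levels, not the share of a transcript on polyribosomes, and it is not stated in the sources used here that both fractions were quantified alike. All 20 medium spiny neuron markers and all 15 cortical excitatory neuron markers in the table were above 0 in every library. The libraries of replicate number 2 stood apart in these markers in all 4 groups: medium spiny neuron markers summed to 560195 to 663946 normalized counts there and to 267686 to 367425 in the other libraries, and cortical markers to 51699 to 76643 against 91684 to 173253. Markers of oligodendrocytes, the cells that form myelin, were also higher there, at 465803 to 550049 against 319844 to 371443, with all 14 above 0 in every library. Shank3, the gene of the transgene, was higher in TG than in WT in all 3 same-numbered pairs, by 2.41 to 4.20 times in input and 2.10 to 3.41 times in polysome libraries.

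Per kilobase of exonic length, Gabrb2 and Gabra4 had the highest levels of the 7 genes in all 4 groups. In WT input Gabrb2 stood at 3033 ± 679 normalized counts per kilobase and Gabra4 at 2691 ± 557 (SD, n = 3), and their libraries overlapped. Gabra5 at 1658 ± 281 and Gabra3 at 1229 ± 477 followed, with overlapping libraries, and the gap between Gabra4 and Gabra5 held in every group. Gabrb1 at 896 ± 242 overlapped Gabra3. Gabrg1 at 430 ± 96.1 and Gabra2 at 413 ± 15.7 were lowest and overlapped each other. TG input had the same order, and in both polysome groups only Gabra2 and Gabrg1, which overlapped, changed places. With the length of the principal transcript in place of all exons, the first 4 places were the same and the order of the lower 3 changed in both polysome groups.

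Among other subunit genes, Gabrd, which encodes the delta subunit that pairs with alpha4, stood at 2875 ± 508 normalized counts per kilobase in WT input (SD, n = 3) and overlapped Gabra4. Gabrp, Gabrr1 and Gabrr2, whose products are known chiefly from outside the striatum, were below 10 per kilobase on average in WT input. Gabra6 and Gabrr3 were not analysed here.

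**Figure D1:**
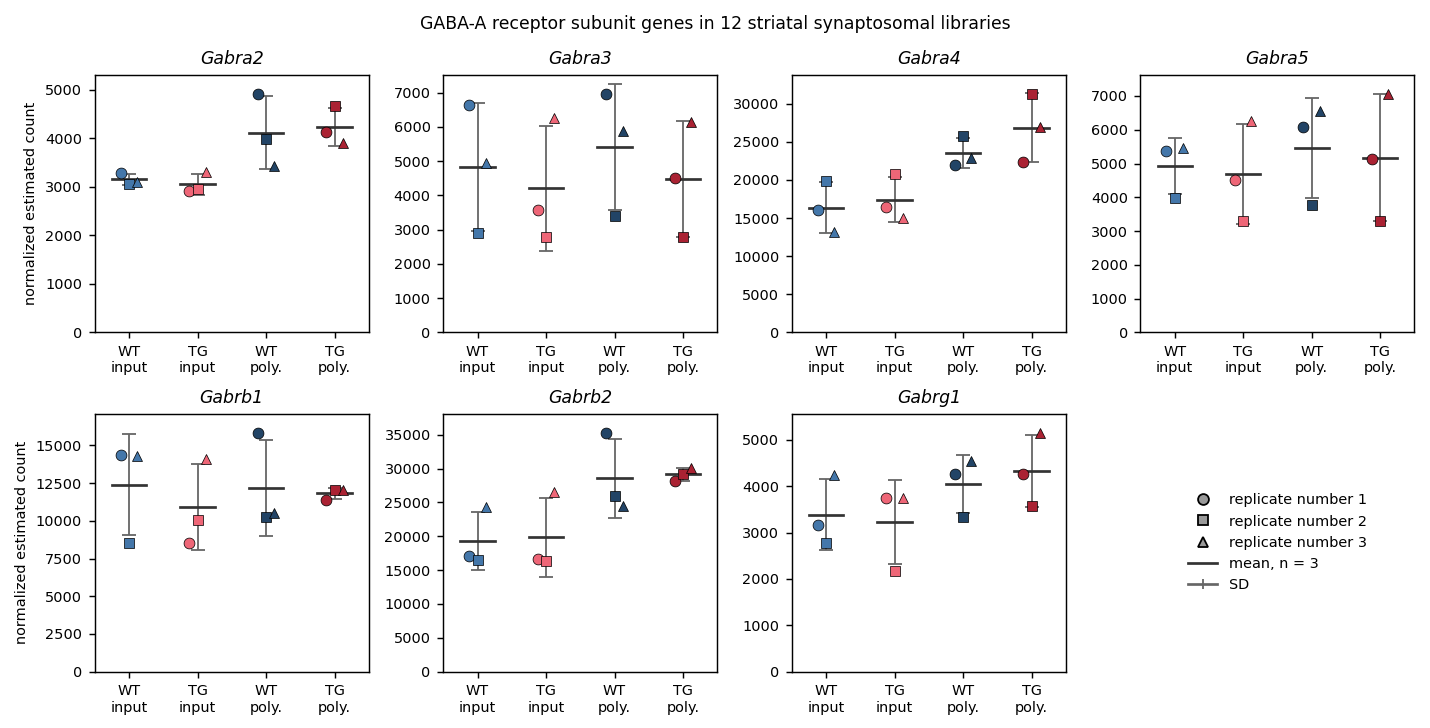
Normalized estimated counts of the 7 subunit genes in each of the 12 libraries, by group (WT and TG, input and polysome), with the mean and SD of 3 libraries. The polysome libraries of Gabra2, Gabra4 and Gabrb2 lie above the input libraries of the same genotype, while Gabra3, Gabra5 and Gabrg1 are lowest in the libraries of number 2 in each group.

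Which synaptosomal transcripts are relatively more or less abundant among polyribosomal RNA was asked within each genotype. Gabra4 was higher in polysome than in input libraries of TG, by 0.62 on the log2 scale, and Gabra2 and Gabrb2 lay above input in every library of both genotypes without passing the test in the unblocked fit. Gabra3, Gabra5 and Gabrb1 had small differences with wide errors, and none of the 7 genes was called lower. Genes were called in limma on log2(value + 1), with Benjamini-Hochberg adjustment over all genes. Without the replicate number as a block, 0 of 7 genes were called in WT and 1 of 7 in TG. Of all 16962 genes tested, 14.0% were called in WT, 5.36% higher and 8.59% lower, and 18.1% in TG, 8.19% higher and 9.86% lower. Unadjusted p fell under 0.05 for 3 of 7 genes in each genotype, and for 5121 and 5566 of all genes. This fit leaves out that libraries of the same number vary together. With the replicate number as a block, 1 of 7 genes was called in WT and 4 of 7 in TG, all higher. Over all genes 13.9% were then called higher in WT and 16.7% in TG.

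The median difference of the 7 genes was 0.27 in WT and 0.45 in TG, against 0.03 in each over all genes. The WT median was 0.13 without WT input 2, 0.18 without WT polysome 3 and 0.40 without WT input 1 or WT polysome 2, and the TG median was 0.19 without TG input 2. With the trend on exonic length removed the medians were 0.48 and 0.67. In WT 6 of 7 genes lay above 0 and in TG 7 of 7, against 8782 and 8793 of 16962 genes, and the exception in WT, Gabrb1, turned to 0.0028 with TMM scaling and to 0.10 with scaling to nuclear coding signal. Libraries of the fractions did not overlap, with polysome higher, for 3 of 7 genes in each genotype, Gabra2, Gabra4 and Gabrb2. The same held for 17.7% of all genes in WT and 17.6% in TG. Scaling the libraries to the signal of nuclear coding genes moved the median of all genes to 0.15 in WT and 0.14 in TG. It turned the calls over all genes from 910 higher and 1457 lower to 1331 higher and 1119 lower in WT, and from 1389 and 1673 to 1790 and 1344 in TG. Under that scaling Gabra2, Gabra4 and Gabrb2 were each called higher in both genotypes, where 7.84% of the 16978 genes then tested were called higher in WT and 10.5% in TG.

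Within a library the 7 genes summed to 0.123% to 0.149% of the nuclear coding signal in input and to 0.169% to 0.213% in polysome. These ranges do not overlap, and this share does not depend on how libraries were scaled to each other. A sum weighs the genes with high values most. From WT input to WT polysome the mean sum went from 64352 to 83368 normalized counts. Gabra4 went from 16370 to 23570 and Gabrb2 from 19289 to 28582, but Gabrb1 from 12401 to 12182. The share thus does not speak for each of the 7 genes, and how often other sums of genes behave so was not counted.

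Among the alpha genes, Gabra4 had 16103, 19886 and 13122 normalized counts in WT input libraries 1 to 3 and 22020, 25757 and 22932 in WT polysome. In TG it had 16475, 20808 and 15019 in input and 22360, 31333 and 26909 in polysome. Every polysome library exceeded every input library of its genotype, and the ratio within pairs of the same number was 1.30 to 1.75 in WT and 1.36 to 1.79 in TG. The difference was 0.54 ± 0.20 in WT (SE on the log2 scale; limma adjusted p = 0.0838) and 0.62 ± 0.20 in TG (limma adjusted p = 0.0451). With the replicate number as a block Gabra4 was called in WT as well (SE 0.14, adjusted p = 0.0176), where 13.9% of all genes were called higher. In TG the block gave a limma adjusted p of 0.00886, where 16.7% of all genes were called higher. Without the block the TG call rests on a narrow margin, since it was lost when any of 9 of the 12 libraries was left out. It held without WT input 2, WT input 3 or TG input 2, with adjusted p from 0.041 to 0.149 over the 12 omissions.

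Gabra2 had 3291, 3068 and 3104 normalized counts in WT input and 4920, 3986 and 3435 in WT polysome. In TG the values were 2906, 2958 and 3300 in input and 4140, 4673 and 3907 in polysome. The input libraries were close together, and all polysome libraries lay above them. Gabra2 differed by 0.37 ± 0.15 in WT (adjusted p = 0.128 in limma) and by 0.47 ± 0.15 in TG (adjusted p = 0.0514). The replicate block took the TG difference past the threshold (adjusted p = 0.0241), and so did leaving out WT polysome 1 (0.0435) or WT polysome 3 (0.0375) without the block.

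Gabra3 ranged more widely between libraries than between fractions. It had 6628, 2889 and 4947 normalized counts in WT input and 6971, 3389 and 5893 in WT polysome, then 3582, 2783 and 6264 in TG input and 4513, 2778 and 6145 in TG polysome. The groups overlapped almost wholly. Its difference was 0.19 ± 0.40 in WT and 0.10 ± 0.40 in TG (limma adjusted p = 0.801 and 0.89), with a 95% interval from -0.67 to 1.04 in WT.

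Gabra5 had 5368, 3968 and 5456 normalized counts in WT input and 6070, 3765 and 6548 in WT polysome. In TG it had 4498, 3307 and 6264 in input and 5140, 3302 and 7070 in polysome. The fractions overlapped in both genotypes, and number 2 was the lowest library of each group. The difference was 0.12 ± 0.31 in each genotype (limma adjusted p = 0.836 in WT and 0.823 in TG).

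Of the beta genes, Gabrb2 had 17084, 16517 and 24265 normalized counts in WT input and 35269, 26024 and 24454 in WT polysome. In TG it had 16717, 16310 and 26561 in input and 28170, 29220 and 30136 in polysome. The fractions were just apart, since input library 3 in WT, at 24265, came close to the lowest WT polysome library, at 24454. Its polysome-to-input ratio was 2.06 and 1.58 in WT pairs 1 and 2 and 1.01 in pair 3. Gabrb2 differed by 0.57 ± 0.23 in WT (limma adjusted p = 0.109) and 0.59 ± 0.23 in TG (adjusted p = 0.0878). With the replicate block it was called in TG (adjusted p = 0.0473), and without TG input 3 the unblocked difference was 0.82 (adjusted p = 0.0407).

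Gabrb1 had 14365, 8540 and 14296 normalized counts in WT input and 15824, 10221 and 10502 in WT polysome, then 8553, 10082 and 14067 in TG input and 11400, 12036 and 12047 in TG polysome. The libraries of the fractions overlapped, and polysome was below input in pair 3 and above it in pairs 1 and 2 of both genotypes. The difference was -0.02 ± 0.25 in WT and 0.15 ± 0.25 in TG (limma adjusted p = 0.976 and 0.721).

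Gabrg1, the only gamma gene among the 7, had 3161, 2768 and 4230 normalized counts in WT input and 4254, 3337 and 4532 in WT polysome. In TG it had 3752, 2177 and 3751 in input and 4253, 3580 and 5147 in polysome. Polysome was above input in each of 6 pairs, by 1.07 to 1.35 times in WT and 1.13 to 1.64 times in TG, although the groups overlapped. Gabrg1 differed by 0.27 ± 0.24 in WT (limma adjusted p = 0.501) and 0.45 ± 0.24 in TG (adjusted p = 0.217), and was called in TG with the replicate block (SE 0.13, adjusted p = 0.03). Single libraries moved its unblocked difference, to 0.13 without WT input 2, 0.18 without WT polysome 3 and 0.44 without WT input 3 in WT, and to 0.19 without TG input 2 in TG. With the block 4 of the 7 genes were called higher in TG, where 16.7% of all genes were.

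**Figure D2:**
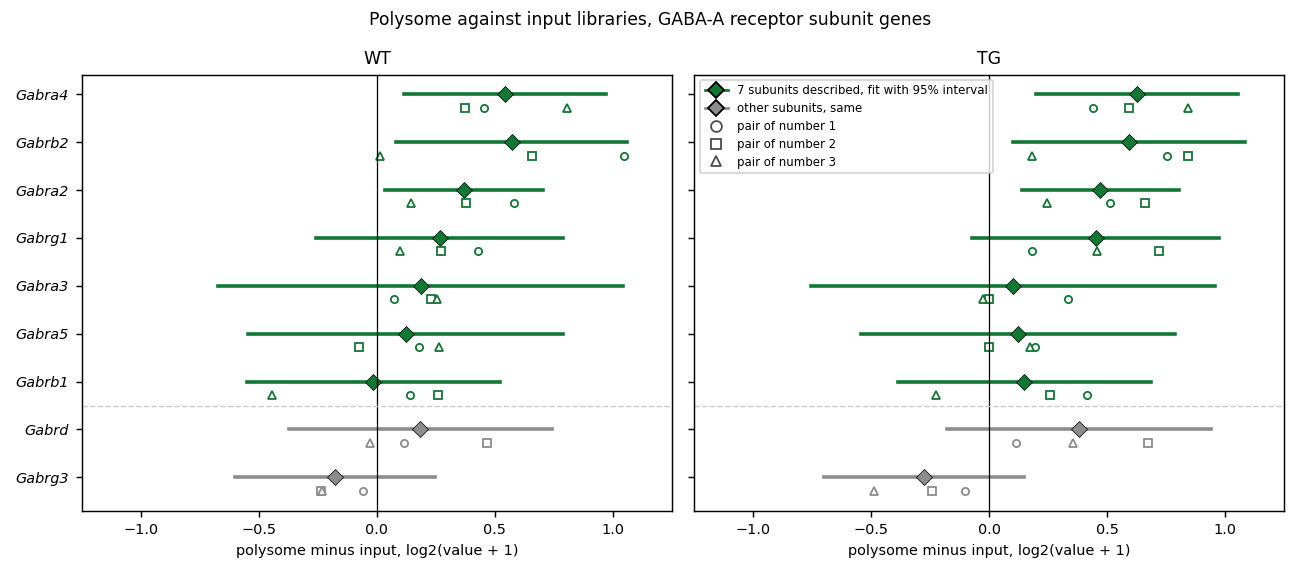
Polysome minus input on the log2(value + 1) scale for the 7 subunit genes (green) and 2 other subunit genes (grey), in WT (left) and TG (right). Diamonds are limma estimates with 95% intervals from 12 libraries, and open symbols are single pairs of the same number. Gabra4, Gabrb2 and Gabra2 lie right of 0 with intervals that leave out 0, and the intervals of all other genes plotted include 0.

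Exonic length moved with the difference between fractions. Among the 25% of tested genes with the shortest exonic length the median difference was 0.29 in WT and in TG, and among the longest 25% it was -0.28 in each. Gabra2, Gabrb1 and Gabrg1 belong to the longest 25%, with 7640, 13838 and 7869 exonic bases, and none of the 7 belongs to the shortest. With the trend on length removed, 2 of 7 genes were called higher in WT, Gabra2 and Gabra4, and 3 of 7 in TG, Gabra2, Gabra4 and Gabrb2. Over all genes 4.29% were then called higher in WT and 6.69% in TG. Its part in the values was not tested further.

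Astrocyte markers, given because gamma1 and other subunits also occur in glia, summed to 420308 to 478499 normalized counts in the 6 input libraries and 268200 to 438151 in the 6 polysome libraries. All 14 markers were above 0 in every library. Microglial markers summed to 48057 to 67622 and 57845 to 78399, with all 12 above 0. The part of these cells in the subunit values was not tested. In such bulk samples fewer cells of a type and less RNA per cell cannot be told apart.

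Of 12 other subunit genes listed, 10 were in the table and 8 were tested. In either genotype 0 of 8 were called, where 14.0% of all genes were called in WT and 18.1% in TG. Their median difference was -0.0449 in WT, with 4 genes above 0 and 4 below. In TG it was -0.2868, with 3 above 0 and 5 below. The positive medians of the followed genes were thus not shared by the other subunit genes as a set. Gabrd, which was named after its values were seen, differed by 0.18 ± 0.26 in WT and 0.38 ± 0.26 in TG (SE; limma adjusted p = 0.681 and 0.332). With the replicate block 1 of 8, Gabrq, the theta subunit gene, was called lower in both genotypes (-0.998 and -0.988, limma adjusted p = 0.0175 and 0.0152). Over all genes 15.9% were then called lower in WT and 16.6% in TG.

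A ratio of subunit genes within a library is free of scaling between libraries. The polysome-to-input fold of Gabrb2 was 1.87, 1.32 and 1.37 times that of Gabrb1 in WT pairs 1 to 3 and 1.264, 1.501 and 1.325 times in TG, above 1 in each of 6 pairs. This pair of genes was chosen after the values were seen, and no test was made of it. The 2 genes differ in exonic length, 6360 bases in Gabrb2 and 13838 in Gabrb1, and these folds were not adjusted for length.

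Genes that hold GABA-A receptors at the synapse or move them had calls in both directions. Of 24 tested, 2 were called higher and 5 lower in each genotype. Over all genes 5.36% were called higher and 8.59% lower in WT, and 8.19% and 9.86% in TG. Gphn, which encodes gephyrin, the scaffold under inhibitory synapses, fell furthest. It had 4653, 5966 and 5631 normalized counts in WT input and 2391, 2445 and 1558 in WT polysome, with every polysome library below every input library. The difference was -1.37 ± 0.27 in WT and in TG (limma adjusted p = 0.00827 and 0.00699). Gabarapl2, a relative of the GABA-A receptor-associated protein that acts in autophagy and membrane traffic, rose furthest, by 0.92 ± 0.22 in WT and 0.97 ± 0.22 in TG (adjusted p = 0.0203 and 0.013).

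The other genes called lower in both genotypes were Arfgef2, Maged1, Plcl2 and Rdx, with differences from -0.93 to -0.77. Rdx encodes radixin, known to anchor alpha5-containing receptors outside synapses, and Plcl2 a protein related to phospholipase C. Gabarapl1 was called higher in WT (0.53, adjusted p = 0.0481) and Clptm1, whose product retains GABA-A receptors in the endoplasmic reticulum, in TG (0.58, adjusted p = 0.0448). The median over the 24 genes was -0.34 in WT and -0.44 in TG. With the replicate block 4 were called higher and 10 lower in WT, and 4 and 11 in TG. That block also raised the calls over all genes, to 13.9% higher and 15.9% lower in WT and 16.7% and 16.6% in TG.

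Among 7 genes of GABA-B receptors and chloride transport, 1 was called in each genotype, where 14.0% of all genes were called in WT and 18.1% in TG. Slc12a5 encodes KCC2, the potassium-chloride cotransporter that keeps neuronal chloride low, and it fell by 0.82 ± 0.21 in WT and by 0.90 ± 0.21 in TG on the log2 scale (limma adjusted p = 0.0236 and 0.0131). Its values were 49246, 45573 and 51384 in WT input against 32614, 26308 and 24304 in WT polysome, without overlap. With the replicate block Kctd8, an auxiliary GABA-B subunit gene, was called lower in TG as well (limma adjusted p = 0.0376), where 16.6% of all genes were.

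The effect of the Shank3 transgene on the 7 genes was examined in each fraction separately. No gene of the 7 was called, and none had TG and WT libraries apart, in either fraction. The same 2 groups were apart for 2.62% of all genes in input and 2.37% in polysome. In limma 0 of 16341 genes were called in input and 0 of 16312 in polysome, or 0% of genes, with unadjusted p under 0.05 for 80 and 53. Shank3 itself was thus not called in these fits, so they can miss a rise of its size. For the 7 genes unadjusted p was at least 0.369 and adjusted p was 1. With the replicate block 0 genes were called in input and 1, Shank3, in polysome (0.00613% of genes). Unadjusted p was then under 0.05 for 445 genes in input and 438 in polysome.

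In input Gabra2 had the narrowest interval, -0.05 ± 0.13 (SE; 95% interval -0.36 to 0.26). Gabra3 had the widest, -0.20 ± 0.37 (-1.05 to 0.65). Gabra4, Gabra5, Gabrb1, Gabrb2 and Gabrg1 differed by 0.10, -0.11, -0.18, 0.03 and -0.09. In polysome libraries Gabra3 differed by -0.28 ± 0.35 (-1.08 to 0.51) and Gabra4 by 0.18 ± 0.19 (-0.25 to 0.61). Gabra2, Gabra5, Gabrb1, Gabrb2 and Gabrg1 differed by 0.06, -0.11, -0.01, 0.05 and 0.09. The intervals are wide, so equal levels are not shown.

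Gabra4 was the only one of the 7 genes with TG above WT in all 3 pairs of both fractions, by 1.02 to 1.14 times in input and 1.02 to 1.22 times in polysome. The lowest of these ratios are close to 1, and how many of all genes did the same was not counted. The cell type markers had the following values. In polysome libraries 20 of 20 medium spiny neuron markers lay above 0 in TG against WT (median 0.23), and 13 of 15 cortical markers below 0 (median -0.15). In input the counts were 19 of 20 (median 0.20) and 14 of 15 below (median -0.14). Over all genes 8709 of 16312 lay above 0 in polysome libraries and 7703 of 16341 in input. Of the 14 oligodendrocyte markers 12 lay above 0 in polysome libraries (median 0.08) and 13 in input (median 0.12). None of these markers was called, and their part in the subunit values was not tested.

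Whether the transgene changed the difference between fractions was tested by the interaction of genotype and fraction. In limma 0 of 16962 genes were called (0%), with 94 at unadjusted p under 0.05. The 7 genes ranged from -0.08 for Gabra3 to 0.19 for Gabrg1 with a median of 0.08, against 0.02 over all genes. A call in TG and none in WT, as for Gabra4, is thus not shown to be a difference between genotypes (interaction 0.08 ± 0.28, adjusted p = 1).

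No other gene of the GABA lists was called for genotype or interaction. The smallest p-values in input belonged to Gabrr2 among other subunits (0.59 ± 0.51), to Trak2, a motor adaptor gene (0.20 ± 0.15), and to Kctd8 (0.21 ± 0.26). In polysome libraries they belonged to Gabrr2 (-0.39 ± 0.31), Arfgef2 (-0.17 ± 0.20) and Slc12a5 (-0.14 ± 0.19). In the interaction they belonged to Gabrr2 (-0.98 ± 0.56), Clptm1 (0.20 ± 0.26) and Kctd16 (0.09 ± 0.28). All of these are limma estimates on the log2 scale, with SE and an adjusted p of 1.

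**Figure D3:**
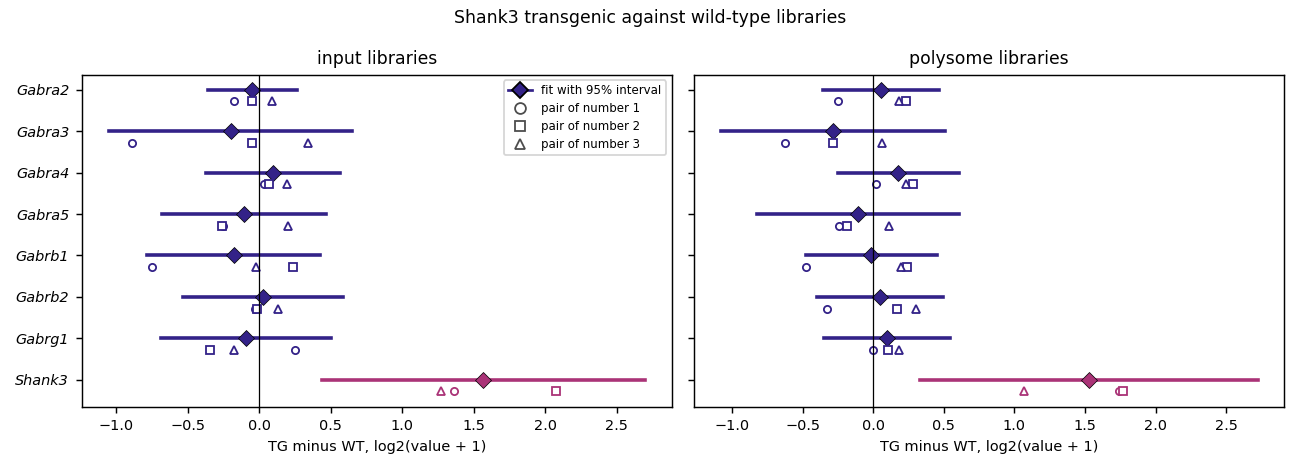
TG minus WT on the log2(value + 1) scale for the 7 subunit genes and for Shank3, in input (left) and polysome libraries (right). Diamonds are limma estimates with 95% intervals from 6 libraries, and open symbols are pairs of the same number. All 7 intervals include 0 in both fractions, and that of Shank3 lies above 0.

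For Gabra3 and Gabra5 the replicate number separated the libraries where genotype did not. Gabra3 had 2778 to 3389 normalized counts in the 4 libraries of number 2 and 3582 to 6971 in the other 8. Gabra5 had 3302 to 3968 against 4498 to 7070. Neither gene's ranges overlapped, and in both fractions number 2 was lowest. Gabrg1 was lowest in number 2 of each group as well, with 2177 to 2768 against 3161 to 4230 in input and 3337 to 3580 against 4253 to 5147 in polysome libraries, and its ranges did not overlap within a fraction. For Gabra4, number 2 held the highest library of each group, at 19886 and 20808 in input and 25757 and 31333 in polysome. How many of all genes split by number in these ways was not counted. The numbers also pair the libraries over all genes that pass the filter. The split is thus not shown to be particular to these genes.

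These libraries of number 2 were also those with high medium spiny neuron and oligodendrocyte markers and low cortical markers. Relative to the mean of 12 libraries on the log2 scale, the summed cortical markers stood at -0.95 to -0.39 in them, Gabra3 at -0.69 to -0.40 and Gabra5 at -0.57 to -0.31. Medium spiny neuron markers stood at 0.53 to 0.77 and Gabra4 at -0.04 to 0.62. In the other libraries Gabra4 stood at -0.64 to 0.4, so its ranges overlapped. Gabra2 stood at -0.28 to 0.38 in number 2 and at -0.3 to 0.46 in the other libraries. What the numbers stand for is not given in the sources used here, and the part of the cell types in the subunit values was not tested.

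**Figure D4:**
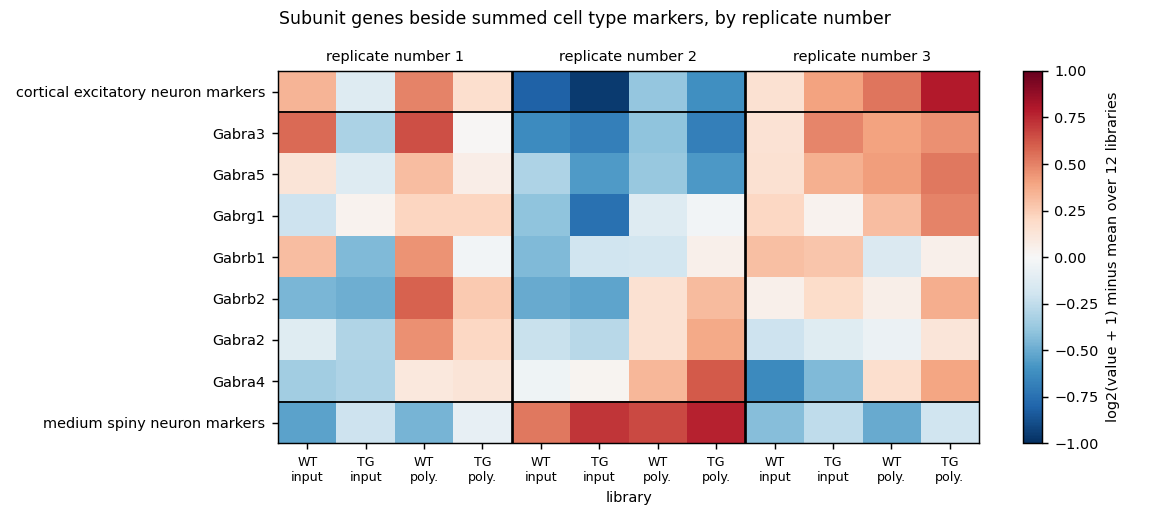
Heat map of the 7 subunit genes between the summed cortical excitatory neuron markers (top) and summed medium spiny neuron markers (bottom), as log2(value + 1) minus the mean over 12 libraries, ordered by replicate number. In number 2 the cortical markers, Gabra3 and Gabra5 are below their means in all 4 libraries, and the medium spiny neuron markers are above theirs.

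Across the 12 libraries the 7 genes fell into different patterns, given here as description since libraries share groups, depth and number. Gabra3 and Gabra5 were most alike (Pearson r = 0.932, n = 12 libraries), followed by Gabra2 and Gabrb2 (0.847). Gabra4 had negative values with Gabra3 (-0.299) and Gabra5 (-0.269). Gabra4 and Gabrb1, whose starts lie head to head, had -0.214.

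The genes most like each subunit gene were found among 14311 genes by the same measure. For Gabra5 they were Nrn1 (0.99), one of the listed cortical markers, Otop2 (0.981) and Ccdc3 (0.981), and for Gabra3 Cd34 (0.973), Chst8 (0.967) and Slitrk1 (0.964). Nrn1 had 2980 to 3621 normalized counts in the libraries of number 2 and 5459 to 10494 in the others, the same split as Gabra5. Otop2 and Ccdc3 were also lower in every library of number 2 than in any other. These genes were picked by their correlation with Gabra5 over the same libraries, so a shared split follows from how they were picked. For Gabra4 the nearest were Erlin1 (0.972), Cd302 (0.968) and Tspan2 (0.964), and for Gabra2 Zdhhc17 (0.947), Sod3 (0.939) and Fgfr1 (0.93). Gabrb2 was nearest to Scpep1 (0.918), Fgfr1 (0.912) and Clcn4 (0.909), Gabrb1 to Anpep (0.905), Plod2 (0.894) and Cdh2 (0.885), and Gabrg1 to Tapbpl (0.957), Lhfpl2 (0.955) and Csgalnact1 (0.947).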

How the data were processed

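RNA of 12 striatal libraries (4 groups of 3) was prepared with a stranded total RNA kit, per the labels' protocols. The deposited table holds a signal for each gene, the authors' normalized estimated counts, which are not whole numbers. The submitters' processing notes name the build GRCm38, DESeq2 1.26.0, Salmon 1.1.0 and R 3.6.2. No source used here gives the annotation or the normalization model. Only 31.8% to 45.5% of low values lay within 0.1 read of a whole number, so reads were not recovered and no count model was run. The value of 1 read (0.609 to 0.842 for polysome, 1.264 to 1.813 for input) gave the estimated depths.

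Of 21492 identifiers, 21465 matched GENCODE M21. Genes with a value of at least 10 in at least 3 fitted libraries were tested with limma 3.58.1 (eBayes with trend, R 4.3.3) on log2(value + 1), a scale that understates changes of low genes. P-values were adjusted by Benjamini-Hochberg over all genes, with a threshold of 0.05. Genotype was fitted on the 6 libraries of a fraction, and fraction and interaction on all 12. Fits without the block were run on simulated data with known changes. The simulated noise was independent between libraries, so this does not speak for libraries paired by number. The numbers 1 to 3 pair the samples: deviations from group means correlated at 0.282 to 0.545 in 12 same-number pairs and at -0.413 to -0.038 in 24 others. The pairing comes from these values, since the labels do not state what a number means, and the block was the alternative. Other alternatives were other pseudocounts, filters and scalings (TMM, the trimmed mean of log ratios, computed on the deposited values), no variance trend, other libraries in the fit, removal of the length trend, and each library left out.

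The 7 genes and all gene lists were chosen with earlier results of these data known. Named were the 7 genes, Shank3, other subunits that were called, in each list the called genes that rose most and fell most (where none was called, that of smallest p), and the 3 best correlated genes among those averaging 5 or more in log2. Others are marked as chosen after their values were seen. Some other subunit genes are not reported here.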

Additional observations from a re-analysis of the deposited data

How the results depend on the processing

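For genotype and for the interaction, 0 of 7 genes were called under every alternative run. For polysome against input, counts of the 7 genes are followed here by those of all genes called higher and lower. In WT the count of 0 of 7 (910 and 1457 of all genes) became 3 with scaling to nuclear coding signal (1331 and 1119), 1 with the replicate block (2358 and 2694), 2 with the length trend removed (728 and 1021), 5 with the block and the length trend removed (2249 and 2152), and 3 with the block and without the libraries of number 3 (1633 and 2036). In TG the count of 1 of 7 (1389 and 1673) became 0 with no filter (1198 and 1514), with no variance trend (1129 and 1398) or with only TG libraries in the fit (627 and 1073). It became 2 with a filter at 50 (1472 and 1742) or TMM scaling (1435 and 1629), and 3 with scaling to nuclear coding signal (1790 and 1344) or the length trend removed (1135 and 1229). It was 4 with the replicate block (2829 and 2809) and 5 with both block and length (2659 and 2350). Leaving out 1 library gave 0 in WT and 0 to 1 in TG, with 648 to 2566 and 1205 to 3263 genes called over all genes. Alternatives chosen after seeing the data left out every library of a number. Without number 1, 2 or 3 the TG count was 0 (204 and 258), 0 (45 and 287) and 0 (114 and 370), and with the block 2 (1720 and 1770), 0 (420 and 901) and 3 (1964 and 2195). The replicate block changed no other call of the 7 genes than those given. Single genes other than the 7 were followed only in the fits with and without the block.

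Gabra4 in TG kept its direction everywhere but lost its call with no filter (adjusted p = 0.0595), no variance trend (0.0621) and only TG libraries (0.0867), and, of the fits without a number, kept it only with the block and without number 1 (0.0382) or 3 (0.0108). The sign of Gabrb1 in WT turned to 0.0028 with TMM, 0.10 with scaling to nuclear coding signal, 0.41 with the length trend removed (with and without the block) and 0.20 without number 3 (with and without the block). In TG, Gabra5 turned to -0.0213 with the length trend removed and Gabra3 to -0.0153 without number 1, each with and without the block. The causes were not tested.

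Leaving out 1 library turned the sign of values that were not called. For polysome against input in WT the ranges were -0.14 to 0.49 for Gabra3, -0.0297 to 0.37 for Gabra5 and -0.26 to 0.11 for Gabrb1, and in TG -0.16 to 0.43, -0.14 to 0.41 and -0.0104 to 0.35. For TG against WT in input they were -0.53 to 0.0695 for Gabra3, -0.0514 to 0.25 for Gabra4, -0.34 to 0.12 for Gabra5, -0.20 to 0.20 for Gabrb2 and -0.22 to 0.17 for Gabrg1. In polysome libraries they were -0.0668 to 0.19 for Gabra2, -0.59 to 0.0229 for Gabra3, -0.37 to 0.18 for Gabra5, -0.12 to 0.19 for Gabrb1, -0.0549 to 0.21 for Gabrb2 and -0.0383 to 0.22 for Gabrg1. For the interaction they were -0.0191 to 0.24 for Gabra2, -0.39 to 0.25 for Gabra3, -0.0699 to 0.23 for Gabra4, -0.26 to 0.29 for Gabra5, -0.16 to 0.25 for Gabrb2 and -0.0759 to 0.32 for Gabrg1. Each of the 7 genes had at least 1527 estimated reads in every library.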
